A study of Mus musculus with 2 samples.

Results

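Respiratory chain genes were examined in GL261 cells, a mouse glioma cell line, grown adherently or as neurospheres. Members were chosen by gene symbol alone: symbols that begin with mt-, Nduf, Sdh, Uqcr or Atp5, and those that begin with Cox followed by a digit from 4 to 8. This gave 111 of the genes in the count matrices, of which 98 lie in the nucleus and 13 on the mitochondrial genome. The question was how the 2 cultures differ in these transcripts, by complex and by the genome that encodes them.

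The study sequenced 1 library of adherent cells and 1 library of neurosphere cells with the 10x Genomics 3' v3 protocol. The labels give both as strain C57BL/6 with the cell type astrocytoma. Adherent cells grew in DMEM containing 10% FBS and 1% penicillin-streptomycin. Neurospheres formed over 12 days in this medium with EGF and FGF, each at 20 ng/ml, and with B-27 diluted 1:50. Both cultures were trypsinized and frozen with 10% DMSO before library construction, the neurospheres with trituration. Each condition is a single culture of 1 cell line, so no difference has a replicate check, no test was run, and every interval covers counting error only.

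The respiratory chain passes electrons from NADH and succinate to oxygen through complexes I to IV in the inner mitochondrial membrane, and complex V uses the resulting proton gradient to make ATP. Complex II is encoded wholly in the nucleus, while complexes I, III, IV and V combine nuclear subunits with subunits made inside the mitochondrion from its own genome. Glioma cells are known for strong glycolysis, yet many also keep an active respiratory chain.

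The kept cells were 5051 of 5764 adherent barcodes and 4276 of 4951 neurosphere barcodes. They held 67755289 and 81654257 unique molecular identifiers (UMIs), with medians of 12076 UMIs per adherent cell and 16682 UMIs per neurosphere cell. The libraries shared 12 barcodes, and leaving these out gave the same log2 ratios for the mitochondrial and nuclear sums (0.91 and -0.34). Kept-cell UMIs of each gene were added up within a library and scaled to the total of all genes, mitochondrial and ribosomal ones included, as CPM. A log2 ratio is that of neurosphere CPM over adherent CPM. A 3' tag is counted once per molecule whatever the transcript length, so CPM was not divided by length. Sums over cells do not separate a change in a few cells from a change in every cell, for which per-cell shares are given further on.

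The astrocytoma label was checked on 10 markers. Vim was the most abundant of them, at 3814 CPM in the adherent library and 1402 CPM in the other, and the 10 genes together went from 4421 to 2027 CPM. The median of the 8 with enough UMIs was 0.40, opposite in sign to the sum, and -0.03 with TMM scaling. Nes and Fabp7 were higher in neurosphere cells (log2 ratios of 1.16 and 0.89), and Vim and Slc1a3 lower (-1.44 and -1.98). Some of the 10 markers were almost absent. Aqp4 had 0 UMIs in both libraries, Gfap was at 0.443 and 0.331 CPM, and Slc1a2 had 4 and 2 UMIs. Gfap and Slc1a2 were picked after their values were seen, so these low levels do not settle the label. The cells are called GL261 cells here.

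Markers of other cells were at low levels, with the fibroblast list as the exception. The summed level was 4.87 and 2.16 CPM for 8 immune markers, 0.915 and 2.57 CPM for 4 endothelial markers, 2.70 and 0.0980 CPM for 4 erythroid markers, 1.68 and 9.47 CPM for 6 striated muscle markers, and 4.65 and 15.0 CPM for 5 neuron markers, in adherent and neurosphere cells in that order. Over both libraries, the most abundant gene of each was Cd74, Pecam1, Hba-a1, Tnnt3 and Syt1. Cx3cr1 of the immune list was at 1.52 and 1.18 CPM. Of these lists, C1qa, Tyrobp, Cdh5, Snap25 and the myosin genes Myh1, Myh2 and Myh4 had 0 UMIs in both libraries. The 5 fibroblast markers went from 6.26 to 312 CPM, led by Col1a1 with 262 CPM and Dcn with 44.2 CPM in neurosphere cells. Lum had 0 and 143 UMIs, Pdgfra was at 4.52 and 3.87 CPM, and Col1a2 was at 0.0148 and 0.282 CPM.

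Signs of RNA quality also differed between the libraries. Transcripts kept in the nucleus (Malat1, Neat1, Meg3 and Kcnq1ot1) summed to 2195 CPM for adherent and 2576 CPM for neurosphere cells (log2 ratio 0.23, but -0.19 with TMM scaling), with Malat1 at 0.11, Neat1 at 1.28 and Kcnq1ot1 at 2.05. The 10 dissociation stress genes summed to 399 and 677 CPM, with Egr1 (2.11) and Fosb (1.28) highest and Atf3 (-0.94) and Dusp1 (-0.87) lowest. Ribosomal protein genes took 29.6% of adherent UMIs and 16.5% of neurosphere UMIs. The part of these marker and quality differences in the results was not tested.

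Transcripts of the 2 genomes differed in opposite directions. The 13 mitochondrial-genome genes summed to 20973 CPM for adherent and 39307 CPM for neurosphere cells, a log2 ratio of 0.91 (95% interval 0.90 to 0.91). As a share of UMIs, this is 2.10% and 3.93%. The 98 nuclear members went from 43708 to 34606 CPM, a log2 ratio of -0.34 (-0.34 to -0.33), or from 4.37% to 3.46% of UMIs. For each UMI of a nuclear member the adherent library held 0.480 and the neurosphere library 1.14 mitochondrial-genome UMIs, a log2 change of 1.24, and this quotient does not depend on the total to which counts are scaled. Neither sum rested on its most abundant gene over both libraries. Without mt-Atp6 the mitochondrial log2 ratio was 0.78, and without Ndufa4 the nuclear one was -0.38.

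The total chosen sets the zero of these ratios. Across the 14763 genes that reached 50 UMIs in both libraries together, the median log2 ratio was 0.54, so a typical gene had a higher CPM in neurosphere cells. Relative to this median, the mitochondrial-genome sum lay at 0.37 and the nuclear sum at -0.87. Leaving mitochondrial and ribosomal genes out of the total moved the median of all genes by -0.22, and TMM scaling moved it by -0.42. Each log2 ratio moves by the same amount, so a value between 0 and 0.42 turns negative with TMM scaling. Under TMM scaling the mitochondrial-genome log2 ratio was 0.48 and the nuclear one -0.76, so both kept their direction.

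Among nuclear members, 96 of 98 reached 50 UMIs, and only Cox8b and Cox8c did not. Their median log2 ratio was -0.33. Of the 96, 70 (72.9%) were below 0, against 28.5% of all genes, and 86 were below the median of all genes. With the total of all genes, few members differed by much. At least 2-fold higher were 3 members (3.13%, against 29.4% of all genes), namely Cox7b2, Sdhaf1 and Cox7a1, and at least 2-fold lower were 4 members (4.17%, against 9.52%), namely Cox6a2, Ndufa4l2, Ndufa13 and Atp5d. Among all genes, 4336 were 2-fold higher and 1406 lower, a split that became 3186 and 1757 without mitochondrial and ribosomal genes in the total, and 2397 and 2173 with TMM scaling. The nuclear members below 0 then numbered 77 and 83 of 96, against 36.2% and 45.0% of all genes. Those at least 2-fold lower numbered 15 (15.6%, against 11.9% of all genes) and 25 (26.0%, against 14.7%), so their number depends on the total.

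**Figure D1:**
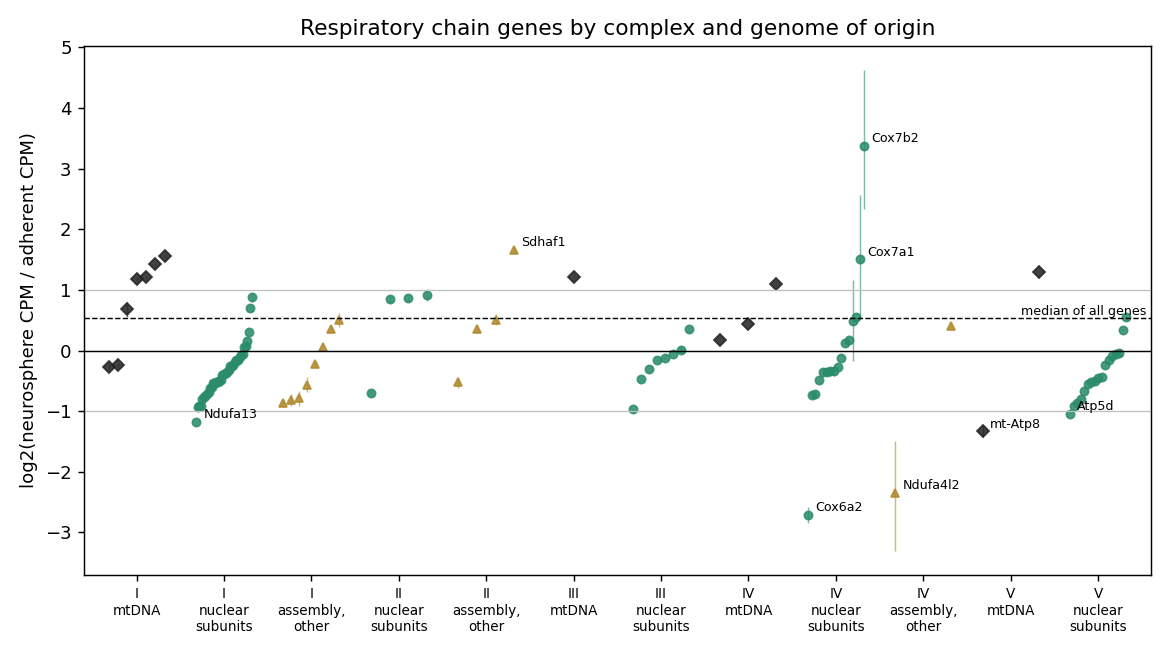
Log2 ratio of neurosphere to adherent CPM for each of the 109 members with at least 50 UMIs, by complex and genome of origin; vertical bars are 95% counting intervals, grey lines mark a 2-fold difference and the dashed line marks the median of all genes, 0.54. Most nuclear members lie below 0 and most mitochondrial-genome genes above it, with mt-Atp8, whose count is uncertain, at -1.33 as an exception.

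Of the 13 mitochondrial-genome genes, 10 had log2 ratios above 0 (76.9%, against 71.5% of all genes) and 3 below, and mt-Co1 was also below 0 without mitochondrial and ribosomal genes in the total and with TMM scaling. At least 2-fold higher were 7 (53.8%, against 29.4% of all genes), but with those totals 3 (23.1%, against 21.6%) and 1 (7.69%, against 16.2%). These genes encode 7 subunits of complex I, cytochrome b of complex III, 3 core subunits of complex IV and 2 subunits of complex V. The light-strand gene mt-Nd6 stands alone on its strand, and the other 12 are read from the opposite strand as a long precursor that is processed into separate RNAs. Their ratios were far from equal.

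In complex I, mt-Nd1 went from 558 to 1637 CPM, a log2 ratio of 1.55 (95% interval 1.54 to 1.57), the largest of the 13. The level of mt-Nd4 went from 861 to 2300 CPM (1.42), that of mt-Nd2 from 618 to 1428 CPM (1.21), and that of mt-Nd3 from 151 to 342 CPM (1.18). The remaining complex I genes were lower or differed less. Counts of mt-Nd5 were 191 and 163 CPM (-0.23, -0.27 to -0.20) and those of mt-Nd4l were 173 and 144 CPM (-0.27, -0.30 to -0.23). The light-strand gene mt-Nd6 was at 12.9 and 20.6 CPM (0.68, 0.56 to 0.80), and its 3' end lies antisense to the end of mt-Nd5.

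Outside complex I, mt-Cytb went from 2965 to 6893 CPM, a log2 ratio of 1.22. The complex IV genes differed less evenly: mt-Co3 from 1836 to 3909 CPM (1.09), mt-Co2 from 5451 to 7385 CPM (0.44) and mt-Co1 from 3637 to 4106 CPM (0.17, but -0.25 with TMM scaling). In complex V, mt-Atp6 went from 4465 to 10959 CPM (1.30), and mt-Atp8 went down from 52.5 to 20.8 CPM (-1.33, -1.42 to -1.25). The order of genes also changed. In adherent cells mt-Co2 led with 5451 CPM and mt-Atp6 followed with 4465 CPM, whereas in neurosphere cells mt-Atp6 led with 10959 CPM and mt-Co2 followed with 7385 CPM.

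**Figure D2:**
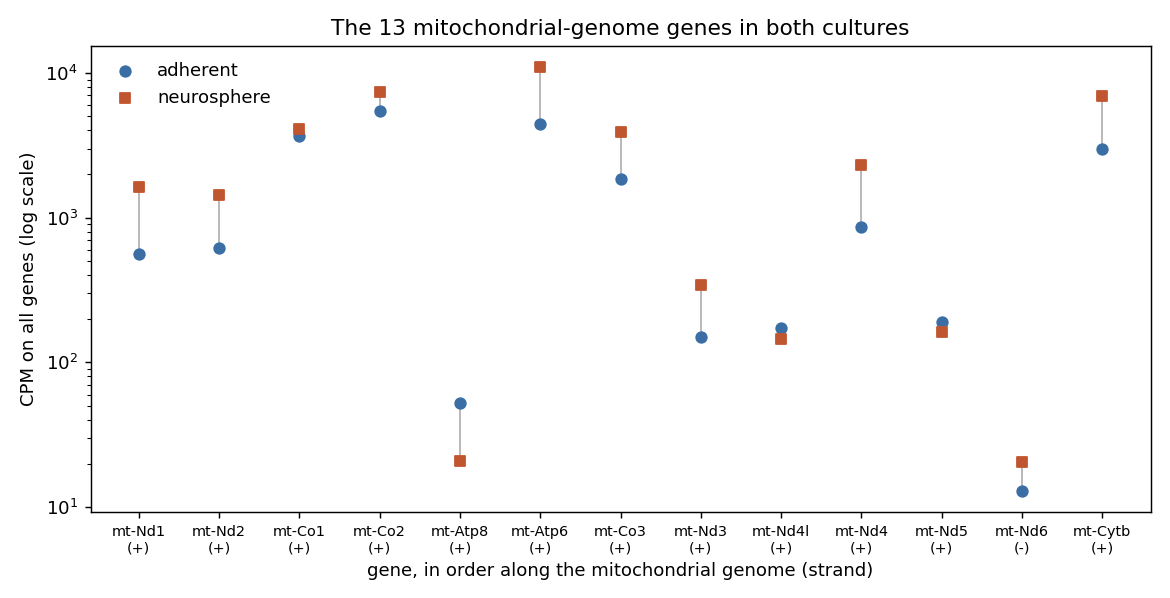
CPM (log scale) of the 13 genes of the mitochondrial genome in order along it, with the coding strand in brackets; circles are adherent and squares neurosphere cells, 1 library each. The squares lie above the circles for 10 genes (with TMM scaling mt-Co1 would lie below) and below them for mt-Atp8, mt-Nd4l and mt-Nd5.

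Each of mt-Atp8 and mt-Nd4l overlaps the gene after it on the same strand, and each pair is carried on a shared RNA. The gene mt-Atp8 (ENSMUSG00000064356) lies on chromosome M from 7766 to 7969 of GRCm38 and shares 43 bases with mt-Atp6, which starts at 7927. The gene mt-Nd4l (ENSMUSG00000065947), from 9877 to 10173, shares 7 bases with mt-Nd4. The gene mt-Atp6 shares 1 base with mt-Co3. How the counting treated reads in the shared bases is not given in the sources used here, so counts of these genes are uncertain. The protocol also tags 3' ends, and mt-Atp8 and mt-Nd4l lie upstream on their shared RNAs. Their counts and quotients therefore need not measure a transcript of the gene itself. The sequences of the 2 longer overlaps are shown with capitals for the shared bases. The plus strand is given from the start of mt-Atp8 to its end and from 10147 to 10193 around the end of mt-Nd4l.
mt-Atp8: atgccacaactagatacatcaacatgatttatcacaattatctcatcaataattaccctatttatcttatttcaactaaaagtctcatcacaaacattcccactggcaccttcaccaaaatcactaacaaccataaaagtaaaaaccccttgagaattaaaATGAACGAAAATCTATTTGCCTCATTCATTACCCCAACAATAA
mt-Nd4l end: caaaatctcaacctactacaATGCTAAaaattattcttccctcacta

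Set against its partner, mt-Atp8 had 11.8 UMIs per 1000 UMIs of mt-Atp6 in adherent cells (95% interval 11.4 to 12.2) and 1.90 in neurosphere cells (1.81 to 1.99), a 6.19-fold difference. For mt-Nd4l there were 201 UMIs per 1000 UMIs of mt-Nd4 in adherent cells and 62.7 in neurosphere cells, a 3.21-fold difference. Both quotients stay within a library and depend on no total. They were also lower for neurospheres in the barcodes that the cell filter left out, at 14.6 and 1.73 for mt-Atp8 and at 297 and 89.4 for mt-Nd4l. The difference was thus present in kept cells and in barcodes left out.

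The nuclear subunits of complex I, the NADH dehydrogenase, went together from 13597 to 9940 CPM, a log2 ratio of -0.45. Of 37 subunits, 31 were below 0 and 35 below the median of all genes. The 30 accessory subunits had a median of -0.44 and the 7 nuclear core subunits, which hold the flavin and iron-sulfur centers, a median of -0.25. Both classes were lower on the whole. The lowest log2 ratio was that of Ndufa13 (ENSMUSG00000036199, chromosome 8 from 69894180 to 69902558, minus strand), an accessory subunit also known as GRIM-19, from 989 to 438 CPM (-1.17, -1.19 to -1.16). It is the only nuclear member that overlaps another gene on the same strand, Yjefn3, so its count carries some doubt. The core subunit Ndufs8 followed, from 118 to 62.0 CPM (-0.93).

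Ndufb9, the nuclear complex I subunit with the most UMIs, went from 1374 to 953 CPM (-0.53). Only a small number of complex I subunits were higher. Ndufs1, the largest core subunit, was at 29.1 and 53.4 CPM (0.87, 0.80 to 0.95), and the accessory subunit Ndufa8 at 261 and 424 CPM (0.70). Both stayed above 0 in all 10 alternatives for single genes.

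Complex II, succinate dehydrogenase, also belongs to the citric acid cycle and has 4 subunits. They did not move together. Sdha, the flavoprotein, was at 19.3 and 36.4 CPM (0.91, 0.82 to 1.01), and the membrane anchors Sdhc, at 52.7 and 94.7 CPM (0.85), and Sdhd, at 90.9 and 165 CPM (0.86), were higher with it. Sdhb, the iron-sulfur subunit, went from 252 to 155 CPM (-0.70, -0.74 to -0.67). Sdhb held the most UMIs in adherent cells and Sdhd in neurosphere cells. The sum of the 4 moved little, from 415 to 451 CPM (0.12). This sum was at -0.10 without mitochondrial and ribosomal genes in the total and at -0.30 with TMM scaling. All 4 single subunits kept their direction in every alternative run for them.

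Among nuclear members with at least 500 UMIs, only an assembly factor of complex II was at least 2-fold higher. Sdhaf1 (ENSMUSG00000074211, chromosome 7 from 30321406 to 30323895, minus strand), which helps to fit the iron-sulfur clusters into SDHB, went from 53.1 to 168 CPM (1.66, 1.61 to 1.71), and its UMIs were seen in 46.9% and 87.2% of the cells (22.4% and 54.0% after each cell was thinned to 5000 UMIs). Sdhaf1 was thus higher in neurosphere cells, and the transcript of the subunit it serves was lower. Sdhaf2, which attaches the flavin to SDHA, was at 22.6 and 32.1 CPM (0.50). The other factors were Sdhaf4, at 76.2 and 97.9 CPM (0.36, but -0.06 with TMM scaling), and Sdhaf3, at 29.0 and 20.1 CPM (-0.53).

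Complex III passes electrons from ubiquinol to cytochrome c. The 8 nuclear subunits found by the symbol rule, which misses Cyc1, went from 5051 to 3716 CPM (-0.44). Of these, 6 were below 0 and all 8 below the median of all genes. Uqcrq (ENSMUSG00000044894), a small subunit next to cytochrome b and the nuclear one with the most UMIs, was lowest, from 1769 to 903 CPM (-0.97, -0.98 to -0.96). Uqcr10 went from 971 to 699 CPM (-0.47). The highest values were those of 2 other subunits. The core protein Uqcrc1 was level at 70.1 and 70.8 CPM (0.01), and the Rieske iron-sulfur protein Uqcrfs1 was at 159 and 203 CPM (0.36), and both were negative with TMM scaling.

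By summed CPM, complex IV, cytochrome c oxidase, moved least among the complexes with subunits of both genomes. Its 18 nuclear subunits summed to 11068 and 9944 CPM (-0.15), and of the 16 with enough UMIs, 10 were below 0. By the median of nuclear subunits, complex III moved least. That median was -0.11 for complex III and -0.28 for complex IV without mitochondrial genes in the total. Ndufa4 (ENSMUSG00000029632), now counted as a complex IV subunit in spite of its name, had the most UMIs of all nuclear members over both libraries, at 1514 and 2208 CPM (0.54, 0.53 to 0.56). Cox7b went the other way, from 639 to 383 CPM (-0.74).

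Several complex IV positions can be filled from more than 1 gene, often with a form known from heart and muscle or from other tissues. The change in shares was clearest for subunit 6A. The muscle form Cox6a2 (ENSMUSG00000030785, chromosome 7 from 128205435 to 128206387, minus strand) went from 47.5 to 7.25 CPM (-2.71, -2.84 to -2.58), the lowest of any member, while the widespread form Cox6a1 was at 184 and 207 CPM (0.17, but -0.25 with TMM scaling). Cox6a2 took 20.5% of the UMIs of this position in adherent cells (95% interval 19.9% to 21.2%) and 3.38% in neurosphere cells (3.11% to 3.65%). These shares are of summed UMIs and not of each cell. The striated muscle markers Ckm and Acta1 were at 1.05 and 0.133 CPM in the adherent library. The 6 striated muscle markers together went the other way from Cox6a2, from 1.68 to 9.47 CPM. Of the 2 with enough UMIs, Ckm was lower in neurosphere cells (-1.21) and Tnnt3 higher (4.16).

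Other isoform pairs changed less. Cox7a2l, a relative of Cox7a2 not counted among the structural subunits here, held 11.1% of the UMIs of the 7A genes in adherent and 16.6% in neurosphere cells. Its levels were 115 and 153 CPM (0.41, but -0.02 with TMM scaling). Cox7a2 (-0.27) held 88.9% and 83.4%. The testis form Cox6b2 took 3.85% and 4.27% of position 6B, and the levels of Cox6b1 and Cox6b2 were lower alike (-0.49 and -0.33). Cox4i1 (-0.34) and Cox8a (-0.36) made up at least 99.9% of their positions in both cultures, and Cox4i2 held 32 and 54 UMIs.

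A small set of isoforms was close to the detection limit. Cox7a1 had 12 UMIs in adherent and 41 in neurosphere cells (interval of the log2 ratio 0.55 to 2.57), Cox7b2 had 8 and 100 (3.37, 2.34 to 4.63), and Ndufa4l2, a hypoxia-linked relative of Ndufa4, had 59 and 14 (-2.34, -3.30 to -1.49). The largest share of a position among these 3 was 0.319%, that of Cox7b2 in neurosphere cells. Cox8b had 0 and 2 UMIs. Cox8c had 0 UMIs in both, which allows a share of its position of up to 0.00244% in adherent and 0.00260% in neurosphere cells.

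Complex V, the ATP synthase, followed complex I. Its 17 nuclear subunits went from 12756 to 9585 CPM (-0.41), with 15 below 0. By parts of the enzyme, the log2 ratio of the summed CPM was -0.31 for the F1 head, -0.53 for the stalk, -0.33 for the other membrane subunits and -0.51 for the ring of subunit c. All parts were lower. In the head, however, Atp5d, the delta subunit, went from 718 to 349 CPM (-1.04, -1.06 to -1.02), whereas the alpha subunit Atp5a1 went from 411 to 602 CPM (0.55, 0.53 to 0.57).

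Subunit c is encoded by 3 genes that give the same mature protein with different import sequences. Atp5g1 went from 1352 to 713 CPM (-0.92). Atp5g2, the nuclear complex V gene with the most UMIs over both libraries, went from 1490 to 1021 CPM (-0.55). Atp5g3 was at 456 and 578 CPM (0.34, but -0.08 with TMM scaling). Shares of the subunit c UMIs do not depend on the total, and they moved from Atp5g1 (41.0% to 30.9%) to Atp5g3 (13.8% in adherent cells, with an interval of 24.8% to 25.2% in neurosphere cells), with Atp5g2 at 45.2% and 44.1%.

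Assembly factors and members that are not structural subunits numbered 14, with 7 above and 7 below 0. Their sum had a log2 ratio of 0.24 (-0.19 with TMM scaling) and their median was -0.08. Among those with at least 100 UMIs, the lowest values were found in complex I, with Ndufaf6 at 71.1 and 39.0 CPM (-0.86) and Ndufaf3 at 30.7 and 17.4 CPM (-0.82). Both act in the building of complex I. The highest values were those of Sdhaf1 and Sdhaf2.

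Within each complex that has subunits of both genomes, there were more mitochondrial-genome UMIs per nuclear subunit UMI in neurosphere cells. They went from 0.189 to 0.607 in complex I, from 0.587 to 1.85 in complex III and from 0.354 to 1.15 in complex V, which are 3.22-fold, 3.16-fold and 3.23-fold changes. Complex IV moved from 0.987 to 1.55, a 1.57-fold change. The imbalance thus differed little among complexes I, III and V and was smaller in complex IV, where mt-Co1 and mt-Co2 had the smallest positive log2 ratios among mitochondrial-genome genes (mt-Co1 was negative with TMM scaling).

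Shares were also taken cell by cell. The median adherent cell had 2.02% of its UMIs on the mitochondrial genome (5th to 95th percentile 1.30% to 3.97%) and the median neurosphere cell 3.97% (2.42% to 6.88%). For nuclear members the medians were 4.34% (3.41% to 5.28%) and 3.40% (2.48% to 4.33%). Central values were apart while the ranges overlapped. When each cell was thinned to 5000 UMIs, with 210 and 11 cells too shallow to use, the medians became 2.00% and 3.98% for the mitochondrial genome and 4.36% and 3.40% for nuclear members.

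**Figure D3:**
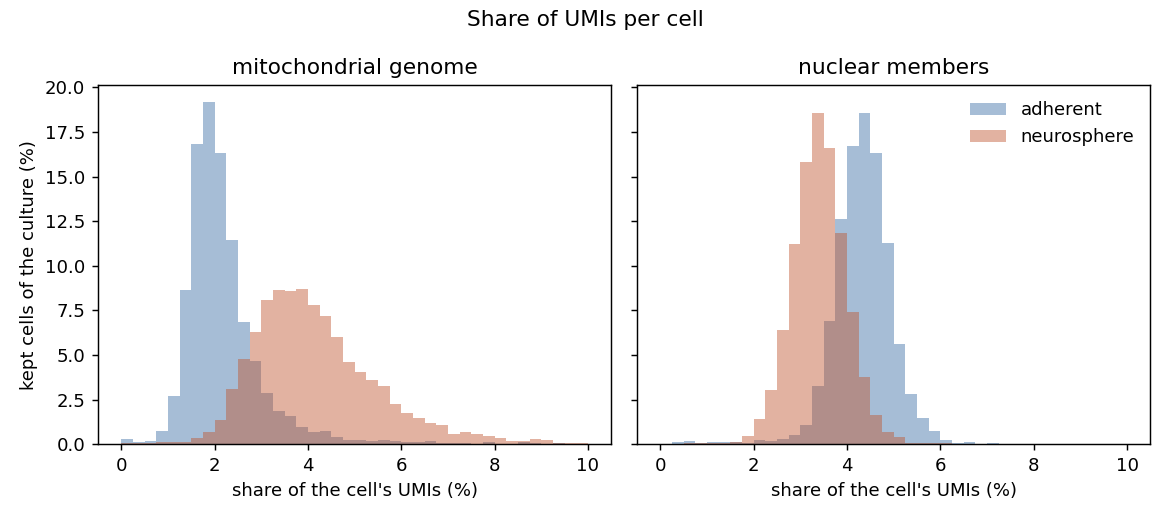
Share of a cell's UMIs on the mitochondrial genome (left) and on nuclear members (right) in 5051 adherent and 4276 neurosphere cells, in steps of 0.25%; 42 adherent and 36 neurosphere cells over 10% on the left lie outside the axis. The medians are 2.02% and 3.97% on the left and 4.34% and 3.40% on the right.

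Across cells, the shares of the 2 genomes were almost unrelated. Spearman's rho between the mitochondrial share and the nuclear member share of the remaining UMIs was 0.08 in 5051 adherent cells and -0.05 in 4276 neurosphere cells. Nuclear members went along with glycolysis genes, with a rho of 0.31 in adherent and 0.49 in neurosphere cells (0.24 and 0.42 in thinned cells). The mitochondrial share was lower in cells with more UMIs, with a rho of -0.34 and -0.43. Cells of a library share its depth and preparation, and both members of a pair share the cell's total, so these are descriptions only.

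Cells were also divided by the summed UMIs of 16 proliferation genes after thinning. In neurosphere cells, the mitochondrial genome took 4.89% of UMIs in the 1034 cells with 0 proliferation UMIs, 4.24% in the 2140 cells between and 3.62% in the 1091 cells with the most. For adherent cells the same shares were 2.28% (328 cells), 2.16% (3286 cells) and 2.12% (1227 cells). Every neurosphere class lay above every adherent class. The nuclear member share varied little over the classes, from 3.27% to 3.46% in neurosphere and from 4.32% to 4.39% in adherent cells. The class with the most began at 16 UMIs for adherent and 15 UMIs for neurosphere cells, with 289 adherent and 252 neurosphere cells within 1 UMI of that limit.

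Cox6a2 was unevenly spread. Its UMIs were seen in 32.3% and 3.95% of the cells, or 17.0% and 2.02% of thinned cells. Neither culture held cells known to lack it, so the share due to free RNA is unknown. In adherent cells, 379 cells with at least 3 UMIs held 1603 of the 3216 UMIs, and 3420 cells had 0. In neurosphere cells, the 592 UMIs came from 169 cells, with up to 34 in a single cell, and the variance of the thinned counts was 3.63 times their mean. The 61 neurosphere cells with at least 3 Cox6a2 UMIs held 464 of the 592 UMIs. In these 61 cells S100a4, a gene high in adherent cells, was at 24.4 CPM and Krt8, a gene high in neurosphere cells, at 506 CPM, against 2.54 and 2457 CPM in the 4107 neurosphere cells without a Cox6a2 UMI. The 108 cells with 1 or 2 Cox6a2 UMIs had S100a4 at 2.18 CPM, which is no higher than in cells without, and Krt8 at 1550 CPM. These classes and genes were chosen after the values were seen. The mitochondrial share was 3.66% in the 61 cells and 3.94% in the cells without a UMI.

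Nuclear members are short genes, with a median span of 7565 bases against 22316 bases for all genes measured. Log2 ratios rose weakly with gene span across the 96 members (Spearman's rho of 0.22) and across 14750 genes (0.14). The 64 members under 10 kb had a median log2 ratio of -0.42 and the 32 longer members -0.17, against 0.34 and 0.60 for all genes of those classes. In both classes of length the members thus lay below the median of all genes of that class. With the trend on gene length removed, the median of the nuclear members was -0.17.

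Promoters of the members were searched for 4 short motifs on both strands, in 300 bases around the start of transcription (250 before and 50 after, RefSeq, build GRCm38.p6). A promoter was found for 81 of the 98 nuclear members and for 27025 genes in all. The NRF1 motif GCGCATGCG was found for 10 members (12.3%, against 1.95% of all genes), the ETS motif CCGGAAG for 22 (27.2%, against 9.93%), the YY1 motif AAGATGGCG for 8 (9.88%, against 1.64%) and the ERRA motif TCAAGGTCA for 2 (2.47%, against 0.466%). These factors are known regulators of respiratory genes. A match to letters does not show a binding site. The 27025 genes include ones with too few UMIs here, and they were not matched to the members in level or base composition. Whether the higher percentages are particular to respiratory genes was therefore not tested.

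Promoters with and without the NRF1, ETS or YY1 motif did not differ widely in their log2 ratios. The median was -0.19 for the 10 members with the NRF1 motif and -0.36 for the 70 without that had enough UMIs, -0.40 and -0.33 for the ETS motif, and -0.48 and -0.31 for the YY1 motif. The ERRA motif was found only for Sdhd and Atp5g3, with log2 ratios of 0.86 and 0.34, the second of which was negative with TMM scaling. The median of these 2 was 0.60, against -0.36 for the 78 members without the ERRA motif. In 7 members the NRF1 motif was found on both strands 1 base apart, as a palindrome of 10 letters. Their log2 ratios did not share a sign: those of Cox6a1, Ndufaf4 and Uqcrc1 were 0.17, 0.36 and 0.01 (all negative with TMM scaling), and that of Ndufaf5 was -0.56. The palindrome is shown in capitals for the 3 in which it lies within 60 bases before the start, with log2 ratios of -0.55 for Atp5g2 (chr15:102671048-102671107, minus strand), -0.44 for Atp5k (chr5:108434400-108434459, minus strand) and -0.54 for Ndufa11 (chr17:56717702-56717761, plus strand).
Atp5g2: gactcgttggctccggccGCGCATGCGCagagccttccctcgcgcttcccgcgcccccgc
Atp5k: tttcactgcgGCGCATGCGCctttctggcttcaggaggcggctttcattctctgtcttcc
Ndufa11: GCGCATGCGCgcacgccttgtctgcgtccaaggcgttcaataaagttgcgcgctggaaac

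Further genes of the pathway were taken from lists. Respiratory genes outside the symbol rule (52 measured) had a median log2 ratio of 0.12, which turned to -0.10 without mitochondrial and ribosomal genes in the total and to -0.31 with TMM scaling, with 2 genes at least 2-fold higher (3.85%, against 29.4% of all genes) and 1 lower (1.92%, against 9.52%). Their sum differed in sign from the median, with a log2 ratio of -0.37. The lower gene was Uqcc2, a complex III assembly factor, from 926 to 259 CPM (-1.84), followed by Etfb (-0.99), while Dmac2 and Tmem186 were highest (1.31 and 1.26). Cycs, cytochrome c, was at 611 and 413 CPM (-0.57). Cyc1, a complex III subunit that the symbol rule missed, was at 385 and 275 CPM (-0.48). Both were named after their values were seen, and 29 of the 52 genes were above 0 and 23 below. The 13 genes of coenzyme Q synthesis had a median of 0.47, with 9 above 0 (69.2%, against 71.5% of all genes). Coq8a, a kinase-like protein of this pathway, stood apart, with 37 UMIs in adherent and 6498 in neurosphere cells (7.19, 6.72 to 7.69), and Pdss2 was second (1.51), with Coq4 and Coq3 lowest (-0.87 and -0.52).

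The list of genes that keep and transcribe mitochondrial DNA lay near the median of all genes. The median of 19 genes was 0.66, with 16 above 0 (84.2%, against 71.5% of all genes) but 3 at least 2-fold higher (15.8%, against 29.4%), and their sum was at 0.22 (-0.20 with TMM scaling). Tfam, which packs and activates mitochondrial DNA, was at 49.1 and 62.4 CPM (0.35, negative with TMM scaling) and the polymerase Polrmt at 4.49 and 6.09 CPM (0.44). Endog and Tfb2m had the highest ratios (2.58 and 1.51) and Top1mt and Ssbp1 the lowest (-0.48 and -0.16). Against the median of all genes, 13 of the 19 lay above it, so the list exceeded a typical gene by little (0.12).

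The 20 genes of mitochondrial RNA processing and decay had a median of 0.68, with 16 above 0 (80.0%, against 71.5% of all genes) and 12 above the median of all genes, and a sum at 0.04 (-0.18 without mitochondrial and ribosomal genes in the total and -0.39 with TMM scaling). Fastkd3 and Supv3l1 were highest (1.89 and 1.32), and the lowest were Slirp, a partner of Lrpprc in keeping mitochondrial mRNAs stable, at 214 and 114 CPM (-0.92), and Hsd17b10 at 139 and 75.3 CPM (-0.89). Lrpprc itself was at 13.7 and 19.2 CPM (0.48). All 12 measured regulators of respiratory gene transcription were above 0, against 71.5% of all genes, with a median of 0.65. However, 7 of the 12 lay above the median of all genes, and 2 (16.7%, against 29.4% of all genes) were at least 2-fold higher. Ppargc1a, a coactivator that promotes mitochondrial growth, had 85 and 291 UMIs (1.51, 1.15 to 1.87) and Gabpb2 803 and 2307 (1.25). The smallest values were those of Pprc1 (0.26) and Nrf1 (0.38), both negative with TMM scaling.

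Metabolic lists on either side of the respiratory chain diverged. The 23 genes of the citric acid cycle and pyruvate entry had a median of 0.23, which was -0.19 with TMM scaling, led by Pdk2 and Pdk1 (2.23 and 1.04), with Idh3g and Fh1 lowest (-0.62 and -0.45). Glycolysis genes went from 7143 to 4361 CPM over 22 measured genes, with a median of -0.54 and 6 at least 2-fold lower (27.3%, against 9.52% of all genes). Gapdh, with the most UMIs, went from 3628 to 1441 CPM (-1.33). The extremes were Slc2a3 and Slc16a3 (-4.01 and -1.40) and Slc2a1 and Aldoc (0.83 and 0.81).

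Medians of lists of other mitochondrial parts were below 0 too. The median was -0.16 for 23 genes of import and chaperones, where Hspe1 (-1.06) and Tomm7 (-0.96) were lowest and Timm44 (0.74) and Timm22 (0.59) highest, and the sum was at -0.38. It was -0.16 for 8 genes of defence and uncoupling, between Gpx4 (-1.79) and Glrx2 (-0.36) below and Ucp2 (1.59) and Prdx3 (0.42, just below 0 with TMM scaling) above, with the sum at -0.66. It was also -0.16 for 78 genes of the mitochondrial ribosome, which translates the 13 mitochondrial mRNAs, with 49 of them below 0, the sum at -0.26, Mrps6 (-1.54) and Mrpl30 (-1.20) lowest and Mrps7 (1.53) and Mrps2 (1.39) highest. Of these 78, 72 lay below the median of all genes.

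The 101 genes with symbols Rps and Rpl lay lower still, with a median of -0.74 over 96 measured genes and 87 of them below 0. Rpl31 (-1.53) and Rpl38 (-1.47) were lowest among those with at least 100 UMIs, the highest of which were Rps6ka5 (1.62) and Rps6ka6 (1.06), which are kinases that the symbol rule takes in. The nuclear respiratory genes therefore lay between the cytosolic ribosomal genes and the typical gene. The 16 proliferation genes had a median of 0.04, with Ccnb1 (0.59) and Aurkb (0.47) highest and Tpx2 (-0.41) and Cenpf (-0.37) lowest, and this median was -0.17 without mitochondrial and ribosomal genes in the total and -0.38 with TMM scaling. Their sum was at -0.02.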

How the data were processed

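The authors deposited, for each library, the raw UMI count of each gene in each called barcode, made with Cell Ranger 7.0.1 on mm10 per the labels, with no normalization. The setting for intron reads and the annotation are not given in the sources used here.

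Cells were kept with at least 1000 UMIs and at least 1250 genes (adherent) or 2250 genes (neurosphere) after leaving aside 13 mitochondrial and 101 ribosomal genes, which stayed in the sums. No doublets were removed. UMIs were summed per library, and CPM used the total of all genes. Log2 ratios have exact conditional 95% intervals, and shares have exact Clopper-Pearson intervals. Genes needed 50 UMIs over both libraries, and a count of 0 was set to a floor of 3. A called gene is past 2-fold. Thinning drew 5000 UMIs per cell.

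The members and lists were chosen with earlier results of these data known. Named are all mitochondrial-genome genes, all complex II genes and all isoform pairs, and for other complexes the gene with the most UMIs and the 2 largest and 2 smallest log2 ratios at 100 UMIs, as for each list. A few further genes (Cycs, Cyc1, Tfam, Polrmt, Lrpprc, Gapdh, Gfap, Slc1a2, Col1a2, Acta1, Atp5b, Atp5c1, Atp5e, Atp5k, Ndufa11, Ndufaf4, Ndufaf5, S100a4 and Krt8) were named after their values were seen. Positions come from GENCODE M21 on GRCm38, in which 32158 genes were matched.

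Alternatives covered the cells used, the total, the count minimum, 1 CPM added to both values, a loess trend (span 0.5) on gene length and structural subunits alone. TMM and loess were run in R 4.3.3 (edgeR 4.0.16), all else in Python 3.11.15 with pandas 2.3.3, scipy 1.17.1, matplotlib 3.10.9 and numpy 2.4.6. The ratio and its interval were tested on simulated data.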

Additional observations from a re-analysis of the deposited data

Results flagged for a closer look

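Barcodes that the cell filter left out, 713 adherent and 675 neurosphere, enter none of the CPM values, yet mitochondrial-genome genes took 35.1% of their UMIs in the adherent library and 43.3% in the neurosphere library. They held 16.3 and 24.0 mitochondrial-genome UMIs per UMI of a nuclear member. Nuclear members took 3.31% and 3.19% of their other UMIs, against 4.46% and 3.60% in kept cells. The proportions of the 13 genes differed between left-out barcodes and kept cells for some genes more than for others. As a multiple of the share in kept cells, the share of mt-Nd6 was 2.02 in adherent and 1.61 in neurosphere barcodes, and that of mt-Nd1 was 0.702 and 0.730. The share of mt-Atp8 was 0.375% in left-out adherent barcodes against 0.251% in kept adherent cells, and 0.0550% against 0.0530% for neurospheres. Among the 2 most abundant genes, mt-Co2 made up 26.7% of mitochondrial UMIs in left-out adherent and 19.1% in left-out neurosphere barcodes, and 26.0% and 18.8% in kept cells, while mt-Atp6 made up 25.7% and 31.8%, and 21.3% and 27.9%.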

How the results depend on the processing

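The mitochondrial-genome log2 ratio (0.91) was 0.86 with all called barcodes, 0.95 and 0.92 with the higher or the lower of the gene limits in both libraries, 0.91 with cells under 10% mitochondrial UMIs, 0.97 with thinned cells, 0.87 with each cell weighted equally, 0.69 without mitochondrial and ribosomal genes in the total, 0.93 without mitochondrial genes and 0.48 with TMM scaling. The nuclear log2 ratio (-0.34) was -0.36 with thinned cells, -0.35 with each cell weighted equally, -0.56, -0.31 and -0.76 with those totals in the same order, and -0.35 for structural subunits. The log2 change of the mitochondrial to nuclear quotient (1.24) was 1.20, 1.28, 1.25, 1.25, 1.33 and 1.22 with the same cell settings in the same order, and 1.26 for structural subunits. The median of nuclear members (-0.33) was -0.55 without mitochondrial and ribosomal genes, -0.75 with TMM scaling and -0.17 with the gene length trend removed. Members at least 2-fold higher numbered 1 in place of 3 with thinned cells, with at least 500 UMIs and with 1 CPM added, as Cox7b2 and Cox7a1 have too few UMIs for the first 2 and the added CPM lowers their ratios. Members at least 2-fold lower numbered 15 in place of 4 without mitochondrial and ribosomal genes in the total and 25 with TMM scaling, as both lower every ratio by a constant. None of these directions changed.

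Of 51 named members, 44 kept their sign in all 10 alternatives run for them, and no gene past 2-fold changed sign. Atp5g3, Cox6a1, Cox7a2l, Sdhaf4, Uqcrc1, Uqcrfs1 and mt-Co1 changed sign under a change of total, and Uqcrc1 also with thinned cells. Leaving out the shared barcodes (10 kept adherent and 11 kept neurosphere cells), chosen after seeing the data, gave 0.91 and -0.34. No paired analysis was possible because each group has 1 library. Counting error is small for sums and large for genes under 100 UMIs. With 1 culture per condition, the culture, the medium, the dissociation and the library cannot be told apart.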

Other observations

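Barcodes were also grouped by their mitochondrial share without the cell filter. Nuclear members took 4.43%, 4.52% and 4.12% of the other UMIs in adherent barcodes under 2%, from 2% to 5% and from 5% to 10% mitochondrial UMIs, and 2.48% and 2.15% in those from 10% to 20% and from 20% to 50%. In neurosphere barcodes the same shares were 3.60%, 3.61%, 3.55%, 3.34% and 2.03%. From 50% to 100%, which holds 347 adherent and 478 neurosphere barcodes and no kept cells, the shares were 3.41% and 3.03%, above those from 20% to 50%. Between 2% and 5%, where the cultures had 2481 and 3263 barcodes, the nuclear share was lower in neurosphere cells, and the ribosomal share of the other UMIs was 30.0% and 17.4%. The lowest shares rest on 174 adherent and 23 neurosphere barcodes with median depths of 953.5 and 2536 UMIs.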
